A study of Drosophila melanogaster with 2 samples.

Results

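The cuticular protein genes of Drosophila melanogaster were examined for occupancy by Fer3, a basic helix-loop-helix transcription factor, in whole embryos. The set was taken by symbol, as every protein-coding gene of the Ensembl annotation whose symbol starts with Cpr, Lcp, Ccp84, Edg78 or Twdl. This gave 119 genes of 13968 on the chromosome arms: 71 with the prefix Cpr, 25 Twdl, 15 Lcp, 7 Ccp84 and 1 Edg78. Chromatin immunoprecipitation and sequencing was done on embryos aged 6 to 24 h from 1 transgenic line that stably carries Fer3 with GFP at its C terminus, using an antibody against GFP. There was 1 group of 2 biological replicates and no second condition, so no comparison between conditions could be made. A whole-embryo library mixes every cell type, so occupancy in few cells and weak occupancy in many cannot be told apart. The authors deposited 4 peak lists on the dm6 build. Replicate 1, replicate 2 and the pooled alignments gave 30000 peaks each, and the list thresholded by the irreproducible discovery rate, here called the reproducible list, holds 5636, which are exactly the highest pooled peaks. Read counts are not part of the lists, and the depth behind them is unknown.

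The insect cuticle is a layered extracellular matrix of chitin fibres and proteins that epidermal and tracheal cells secrete at their apical side, late in embryogenesis and again at each moult. Most Cpr, Lcp, Ccp84 and Edg78 proteins carry the Rebers and Riddiford domain, which binds chitin, and the Tweedle (Twdl) proteins are a separate family of cuticle structural proteins that shape the body wall. Many of these genes lie in tandem arrays and are transcribed in pulses set by ecdysone. The bare symbol Cpr, on 2L, is an exception: it belongs to cytochrome P450 reductase, an enzyme of the endoplasmic reticulum that passes electrons to cytochrome P450 proteins and is no cuticular protein. The prefix takes it in, so counts are given for all 119 genes and, where it matters, for the 118 others.

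The reproducible list held 5 summits within 1 kb of a start of these 119 genes, and their windows are shown first because every reproducible call in the set rests on them. Each is 101 bases centred on the summit, read from the RefSeq Release 6 genome (dm6), with E-boxes (CANNTG, the site class that basic helix-loop-helix factors bind, read on both strands) in capitals. The first 3 lie within 1 kb of a cuticular gene's start and the last 2 of a start of the P450 reductase gene; which gene's start is the nearest to each is given further on.
Peak near Cpr73D, chr3L:16956873-16956973, plus strand: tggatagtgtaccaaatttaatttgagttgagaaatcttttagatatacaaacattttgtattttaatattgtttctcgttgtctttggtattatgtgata
Peak near Cpr67Fb, chr3L:10893433-10893533, plus strand: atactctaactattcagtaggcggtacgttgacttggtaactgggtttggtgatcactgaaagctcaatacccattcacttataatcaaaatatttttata
Peak near Cpr65Ay, chr3L:6157719-6157819, plus strand: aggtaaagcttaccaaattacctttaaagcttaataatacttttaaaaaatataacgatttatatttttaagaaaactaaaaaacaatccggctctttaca
Higher peak at Cpr, chr2L:6339738-6339838, plus strand: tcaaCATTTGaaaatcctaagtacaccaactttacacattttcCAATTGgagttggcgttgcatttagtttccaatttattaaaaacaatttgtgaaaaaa
Lower peak at Cpr, chr2L:6338770-6338870, plus strand: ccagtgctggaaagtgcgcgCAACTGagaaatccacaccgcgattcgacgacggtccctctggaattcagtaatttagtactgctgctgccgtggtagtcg
The 3 windows near cuticular genes hold 0 E-boxes, the higher Cpr window holds 2 and the lower holds 1. Of all 5636 reproducible windows of this length, 33.9% hold at least 1. The GC content of the 5 windows is 24.8%, 34.7%, 22.8%, 28.7% and 54.5% in the order shown, against 32.8% ± 9.29 (SD, n = 5636 windows) over the whole list.

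Cuticular protein genes rarely had a reproducible Fer3 peak near their starts. A summit lay within 1 kb of a start for 4 of 119 genes (3.36%, exact Clopper-Pearson 95% interval 0.923 to 8.38), against 26.2% of all protein-coding genes. The 4 genes were Cpr73D, Cpr, Cpr67Fb and Cpr65Ay, and without P450 reductase the count was 3 of 118 (2.54%, 0.527 to 7.25). By prefix, all 25 Twdl genes, all 15 Lcp genes, all 7 Ccp84 genes and Edg78E lacked one. Within 500 bp, Cpr was the single gene left (0.840% of 119, against 22.6% of all genes), so none of the 118 others had a reproducible summit there. Within 2 kb Cpr67Fa2 and Cpr76Ba were added, giving 6 genes (5.04% against 32.1%). The intervals treat genes as independent draws and cover counting error only, and genes that neighbour each other in an array can share a summit.

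Lower peaks were closer to common at these genes. The pooled list placed a summit within 1 kb of 40 of the 119 genes (33.6%, 25.2 to 42.8, against 53.7% of all genes). Replicate 1 did so for 45 (37.8%, 29.1 to 47.2, against 52.5%) and replicate 2 for 32 (26.9%, 19.2 to 35.8, against 57.3%). The cuticular share was below that of all genes in every list, and the ratio of the 2 shares was lowest in the reproducible list. In the pooled list, 62 summits lay within 1 kb of a member, with ranks from 2455 to 29618 and a median of 19952.5, so most were among the lower pooled peaks. In the pooled list, 10 members had a summit within 1 kb with a deposited q no higher than 0.05 (8.40%, 4.10 to 14.9, against 41.6%). In replicate 1 this held for 5 (4.20% against 32.4%) and in replicate 2 for 16 (13.4% against 48.6%).

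The replicates had summits at partly shared cuticular genes. Of the 45 members with a replicate 1 summit and the 32 with a replicate 2 summit, 20 had both (16.8% of the 119, against 42.8% of all genes), and for 12 (10.1%, against 36.0%) a summit of each lay within 100 bp of the other. At 61 members (51.3%, 41.9 to 60.5, against 32.2% of all genes) neither replicate nor the pooled list had a summit within 1 kb. The highest 5636 peaks of either replicate alone gave the same 4 genes as the reproducible list.

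**Figure D1:**
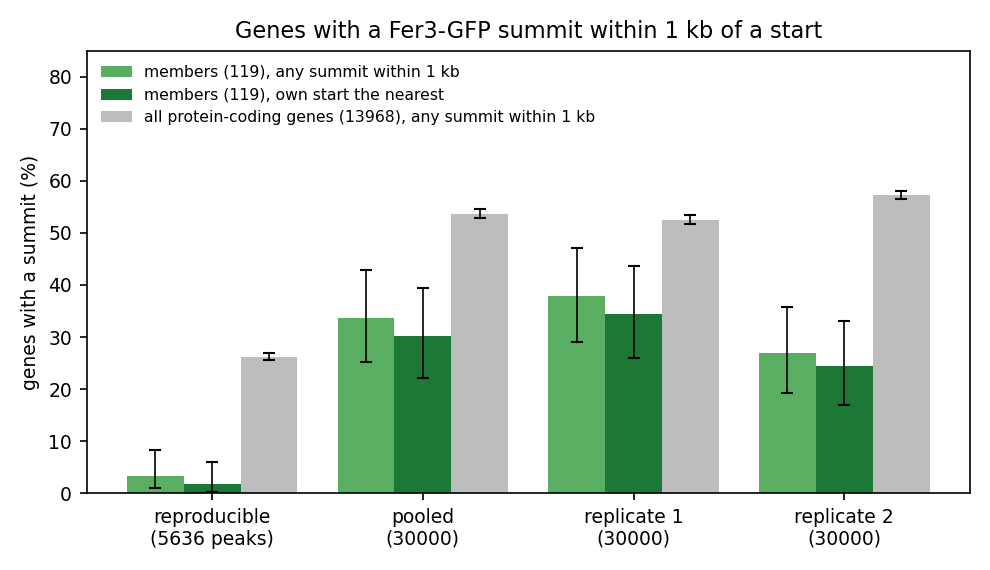
Share of genes (%) with a summit within 1 kb of a start in each of the 4 peak lists, for the 119 members with any such summit, the members whose own start is the nearest to it, and all 13968 protein-coding genes. Error bars are exact Clopper-Pearson 95% intervals over genes; the member bars stand at 3.36% and 1.68% in the reproducible list, where all genes stand at 26.2%.

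The highest of the reproducible peaks lay in Cpr73D, which encodes a chitin-binding domain protein on 3L (FBgn0036680, 16939100 to 16957689, minus strand). Its summit, at 16956923, ranked 2455 of the pooled peaks with an authors' signal value of 249.7. Replicate 1 had a summit there at rank 2254 and replicate 2 at rank 2522, so it stood at a like height in both lists. The summit lies 766 bp from the Cpr73D start, in introns of Cpr73D and of Ogdh, which runs the other way over the same bases and encodes a subunit of the mitochondrial 2-oxoglutarate dehydrogenase complex. An annotated start of Ogdh lies 516 bp away and is the nearest, so Ogdh owns the peak by the rule used here. With 1 start per gene, taken from the gene record, the Ogdh start lies at −2101 bp from the summit, farther than that of Cpr73D, which becomes the nearest.

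The peak near Cpr67Fb was the one reproducible peak within 1 kb whose nearest start belonged to a cuticular gene. Cpr67Fb (FBgn0036110, 3L, 10894173 to 10894693, plus strand) is the last of 3 tandem genes that are all transcribed in 1 direction. The summit, at 10893483, lies between genes, 690 bp before the start, with a signal value of 196.1 and rank 3325. It ranked 2678 in replicate 1 and 5043 in replicate 2. A second pooled summit at 10893696, 477 bp before the start, ranked 5755 and so fell just below the end of the reproducible list. Replicate 2 held that second summit at rank 6933 and replicate 1 a like one, at 10893739, at rank 8099.

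The peak near Cpr65Ay (FBgn0085300, 3L, 6158075 to 6158630, minus strand) belonged to a neighbour. Its summit, at 6157769, lies between genes, downstream of Cpr65Ay and 861 bp from its start. The start of CG13297, a gene for which no role is given here, lies 392 bp away on the other side. The peak had a signal value of 181.0 and rank 3673, with rank 3495 in replicate 1 and 3958 in replicate 2. Both replicates thus placed it nearer to CG13297 than to Cpr65Ay.

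At the P450 reductase gene Cpr (FBgn0015623, 2L, 6338836 to 6346280, plus strand) both summits lay at annotated starts. The higher, at 6339788, lies in an intron 37 bp from a start, with rank 3069, and the lower, at 6338820, lies 16 bp from the first start, with rank 4482. These were the only reproducible summits within 500 bp of a start of any gene of the set. Pez, a neighbour transcribed the other way, has a start 165 bp from a Cpr start.

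**Figure D2:**
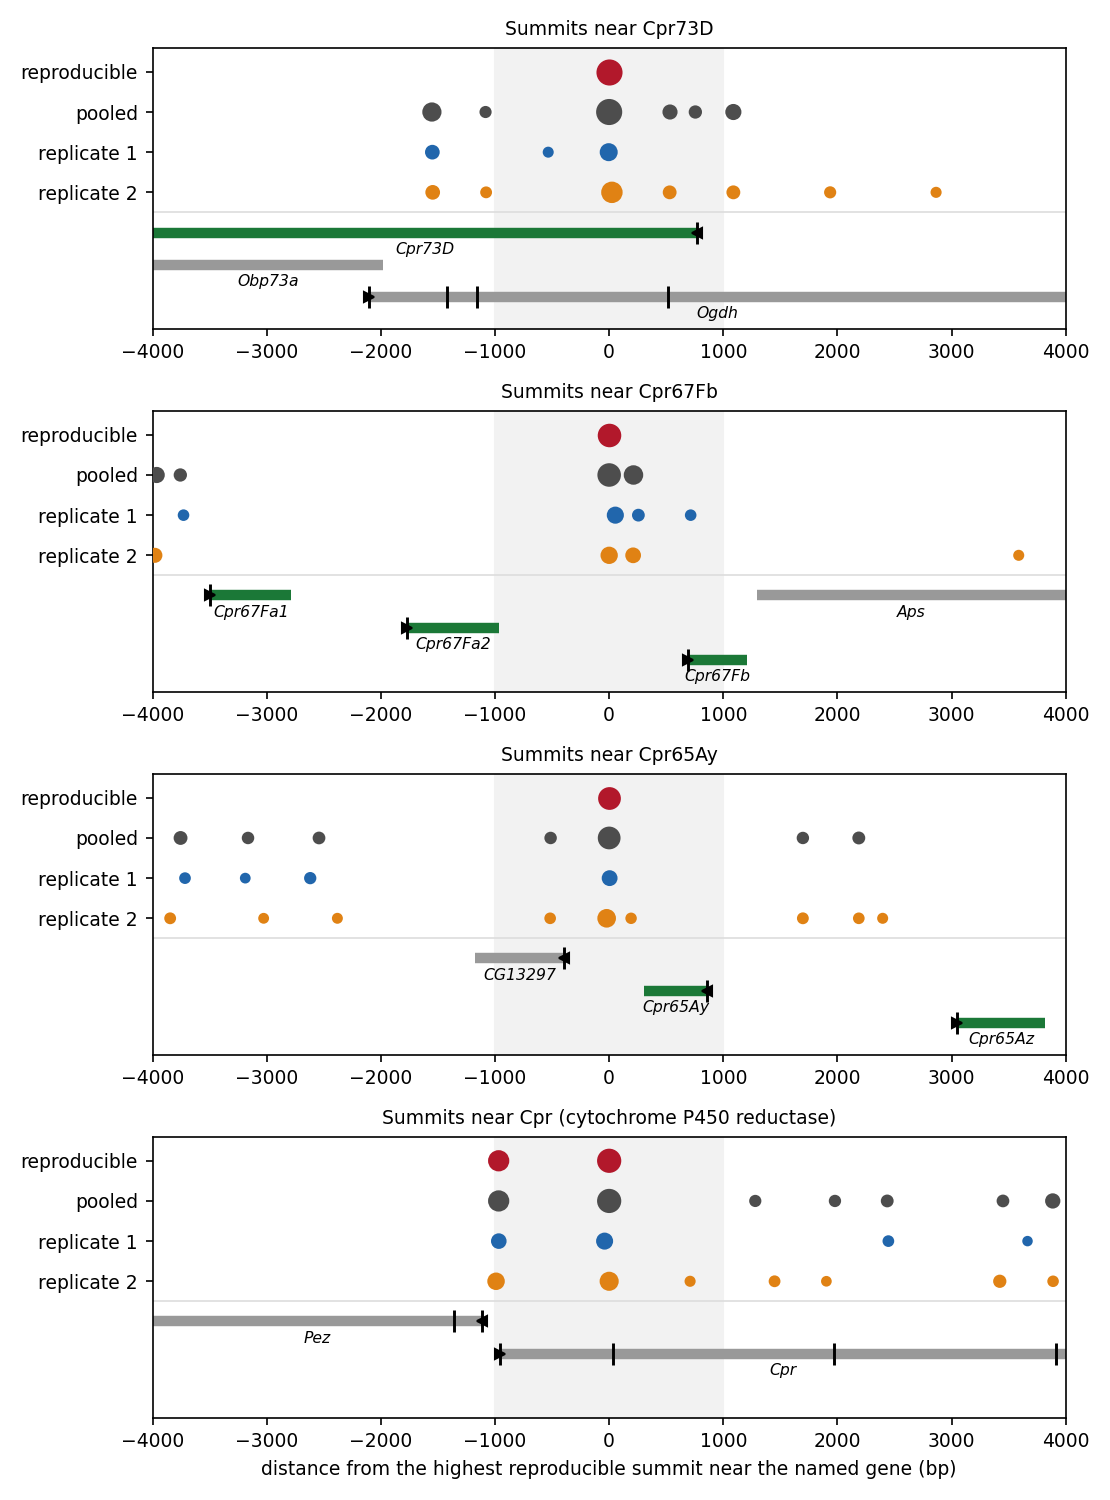
Summits of the 4 lists (x axis, distance in bp from the highest reproducible summit near the named gene) at Cpr73D, Cpr67Fb, Cpr65Ay and Cpr, with a larger point for a higher peak within its list. Bars below are gene bodies, green for cuticular genes and grey for others, ticks are annotated starts, arrowheads give the direction of transcription, and the grey band is 1 kb either side; at Cpr73D and Cpr65Ay a start of Ogdh or CG13297 lies nearer to the central summit.

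Below the reproducible list, several members had pooled peaks with their own start the nearest, and the 8 next highest members by such a peak are given here, with replicate summits counted as the same peak within 100 bp. Cpr65Ea had one at rank 7131 (signal value 102.2, 947 bp from the start). Replicate 2 had the same summit at rank 6782, with a deposited −log10 q of 3.66, and replicate 1 a summit 77 bp away at rank 9838, with 1.10, so the peak passed a q of 0.05 in replicate 2 but not in replicate 1.

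Cpr65Av followed at rank 7976 (signal value 92.7, 381 bp from the start), Cpr67Fa1 at rank 10091 (75.5, 471 bp) and Cpr73D at rank 10184 (74.9, 322 bp). Replicate 2 had these 3 peaks at ranks 6323, 8010 and 10728. Replicate 1 had none of them: its nearest summits lay 566, 235 and 1092 bp away.

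The other four were at Cpr65Au, Cpr72Eb, Lcp65Ae and Cpr47Eg, at pooled ranks 11152, 12378, 12730 and 13476. Both replicates had the Cpr65Au peak, at rank 10162 in replicate 1 and 12597 in replicate 2. Cpr72Eb had its peak in replicate 1, at rank 9467, and no replicate 2 summit within 1 kb. The Lcp65Ae peak, in the coding exon of this larval cuticle protein gene 304 bp from the start, was at rank 8638 in replicate 1 (−log10 q 1.34). The nearest replicate 2 summit lay 212 bp away, so the replicates did not share that peak. They did share a lower pooled Lcp65Ae summit, at rank 14751 and 104 bp from the start. Replicate 1 had that lower summit at rank 29285 and replicate 2 at rank 10753. The Cpr47Eg peak was in replicate 2, at rank 21166, while the nearest replicate 1 summit lay 153 bp away. Over the 36 members with a pooled peak of their own, a replicate 1 summit lay within 100 bp of the highest such peak for 20, a replicate 2 summit for 23 and summits of both for 9. The same counts were not made over all genes, so they are not read as a trait of the set.

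Of the 10 members with a pooled q of at most 0.05, Cpr lies on 2L and the other 9 on 3L, where 46 of the 119 genes lie. Of all genes on 3L, 42.6% had such a summit within 1 kb, against 41.6% over all arms.

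Few peaks near cuticular genes were owned by neighbours once the low peaks were counted. Of the 62 pooled summits near members, 57 had a member's start as the nearest and 5 a neighbour's: 2 at Ogdh and 1 each at CG13297, CG4842 (near Cpr72Ec) and CG3119 (near Cpr23B). In replicate 1 the neighbours owned 3 of 59 and in replicate 2 7 of 60. In the reproducible list they owned 2 of 5. The own start was the nearest to a reproducible summit for 2 members, Cpr and Cpr67Fb (1.68%, 0.204 to 5.94, against 19.2% of all genes), and thus for 1 of 118 without P450 reductase (0.847%). In the pooled list it was for 36 (30.3% against 44.7%), in replicate 1 for 41 (34.5% against 43.6%) and in replicate 2 for 29 (24.4% against 48.4%). The highest replicate 2 summit near a member with no pooled summit, at rank 7169 with a −log10 q of 3.68, lay 440 bp from the larval cuticle gene Lcp9 but 49 bp from CG3594, and replicate 1 had no summit within 1 kb of Lcp9.

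Members seldom have a neighbour that close. A gene outside the set has a start within 1 kb of 8 of the 119 genes, and 2 of these 8, Cpr and Cpr73D, had a reproducible summit (25%). Of the 111 with no such neighbour, Cpr67Fb and Cpr65Ay had one (1.80%). Among all genes, 39.2% of those with another gene's start within 1 kb had a reproducible summit and 16.5% of those without. Another start within 1 kb, of any gene, was found for 13.4% of the members and 42.8% of all genes, and in either class the members' share was the lower, at 12.5% and 1.94%.

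Most cuticular genes lie in arrays. With gene bodies joined across gaps of at most 20 kb, 86 of the 119 genes fell into 15 clusters of 3 to 17 genes, 4 into 2 pairs, and 29 stood alone. A reproducible summit lay within 1 kb of 2 of the 86 clustered genes (2.33%), none of the 4 paired genes and 2 of the 29 single genes (6.90%), or 1 of 28 (3.57%) without P450 reductase. Pooled summits lay near 30 of the 86 (34.9%) and 10 of the 29 (34.5%). In 10 of the 15 clusters at least 1 member had a pooled summit within 1 kb, and in 5 none had.

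**Figure D3:**
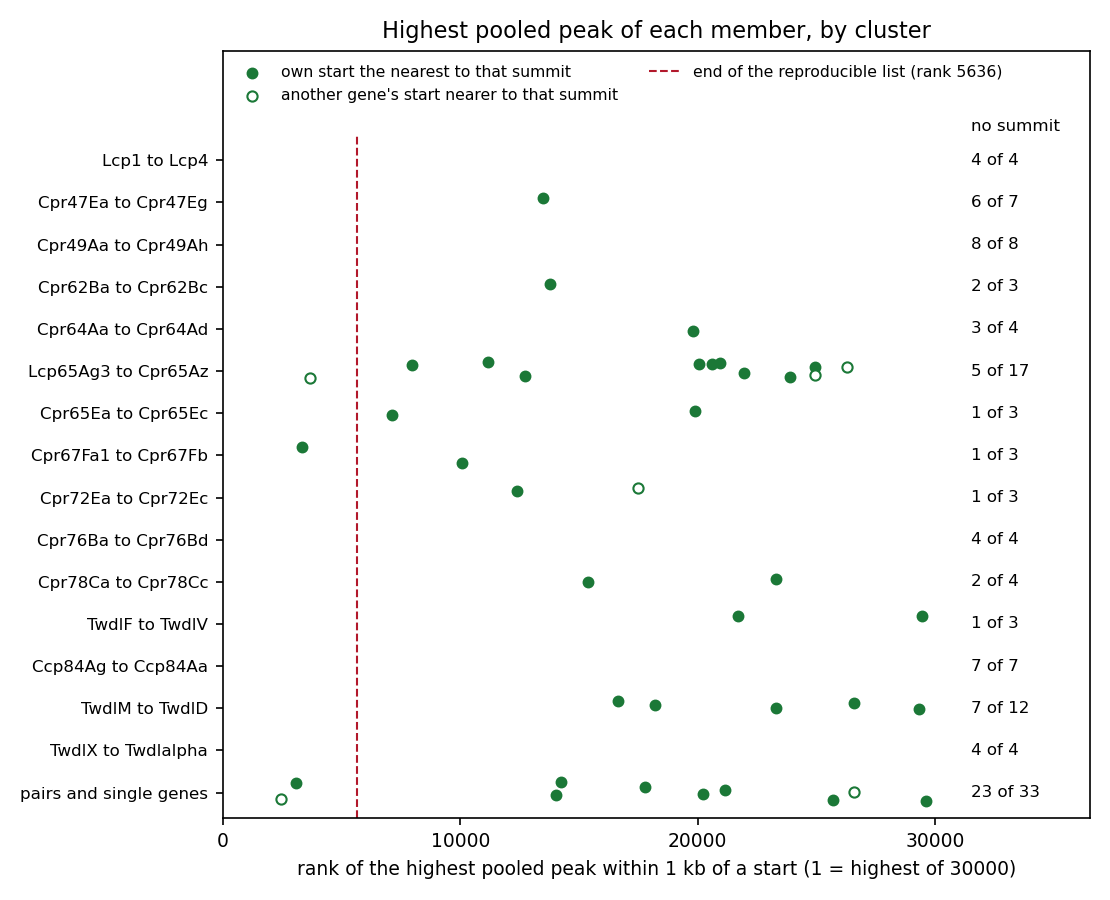
Rank of the highest pooled peak within 1 kb of each member's starts (x axis, 1 is the highest of 30000), with 1 row for each cluster and a last row for pairs and single genes. Filled points are peaks with the member's own start the nearest, open points have a nearer start of another gene, and the numbers at the right count members with no summit; 4 points lie left of rank 5636, the end of the reproducible list.

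The array with the most members, Lcp65Ag3 to Cpr65Az on 3L (6130386 to 6161589), has 17, which encode larval and other chitin-binding cuticle proteins. Pooled summits lay within 1 kb of 12 of them, replicate 1 summits of 9 and replicate 2 summits of 8, and 5 members had a summit of both replicates. The highest was the Cpr65Ay peak that CG13297 owned. Those at Cpr65Av, Cpr65Au and Lcp65Ae followed, and with Cpr65Ay these were the 4 members of the array that reached the q threshold. The others with a pooled summit, among them Lcp65Ag2 (rank 20041), Lcp65Ad (20593) and Lcp65Aa (24932), had low peaks. Lcp65Af, Lcp65Ac, Lcp65Ab1, Lcp65Ab2 and Cpr65Ax1 had no summit within 1 kb in any list.

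**Figure D4:**
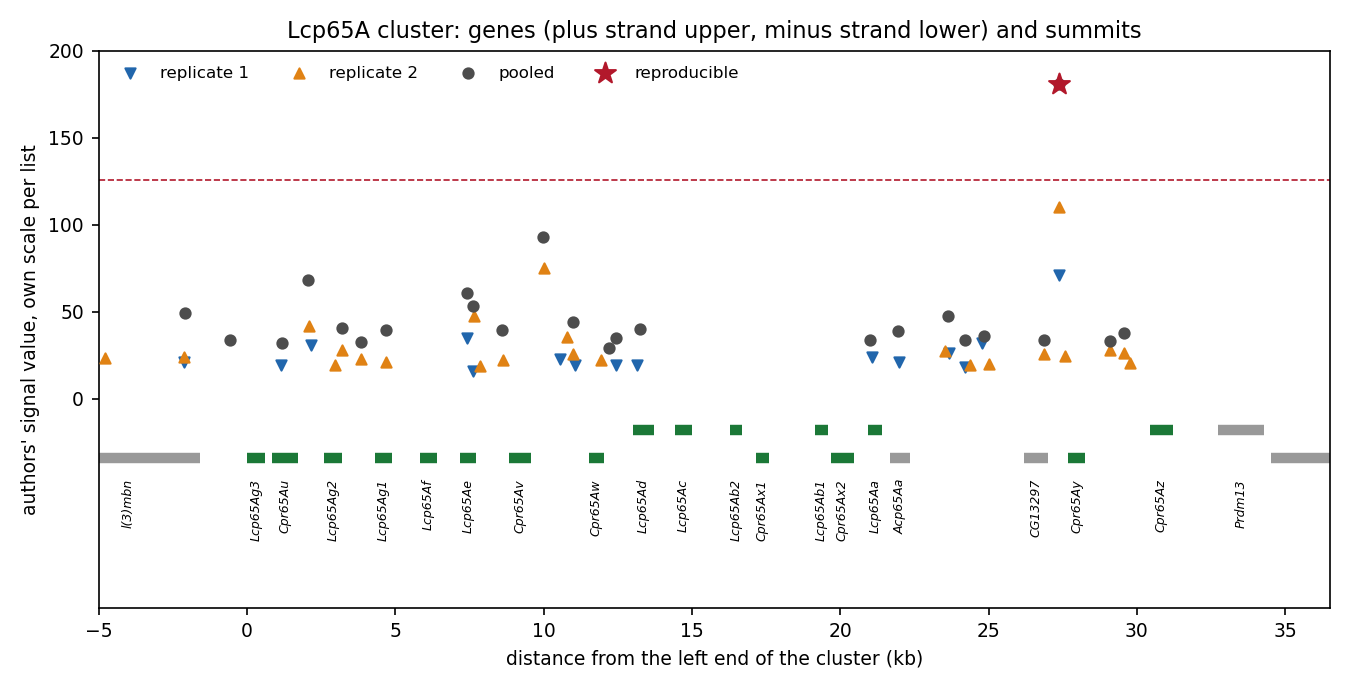
The array from Lcp65Ag3 to Cpr65Az, with distance from its left end in kb on the x axis and the authors' signal value of each summit, on the scale of its own list, on the y axis. Green bars are members and grey bars other genes, with plus-strand genes above minus-strand genes; the reproducible summit, at 181.0 beside CG13297, is the single one above the dashed line at 125.8, the lowest signal value of the reproducible list.

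The Tweedle array TwdlM to TwdlD on 3R (26619118 to 26641054) holds 12 members. Pooled summits lay within 1 kb of 5 (TwdlN highest, rank 16648), replicate 1 summits of 7 and replicate 2 summits of 5. A summit of both replicates lay near 3, and 0 of the 12 reached the q threshold in the pooled list. TwdlB and TwdlD were among those with no pooled summit. In the smaller Tweedle array TwdlF to TwdlV, TwdlF (rank 21693) and TwdlG had low pooled summits and TwdlV had none. In TwdlX to Twdlalpha on the X, all 4 genes lacked a summit within 1 kb in every list.

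Of the other arrays, 7 had a pooled summit near at least 1 member. Cpr65Ea to Cpr65Ec and Cpr67Fa1 to Cpr67Fb, both of 3 genes, had pooled summits near 2 each, and Cpr65Ec and Cpr67Fa2 had none. Cpr72Ea to Cpr72Ec also had 2, at Cpr72Eb and Cpr72Ec, the second owned by CG4842. Cpr78Ca to Cpr78Cc, the array that holds the ecdysone-dependent gene Edg78E, had pooled summits at Cpr78Ca (rank 15391) and Cpr78Cc, and none at Edg78E in any list. Cpr47Ea to Cpr47Eg had 1 of 7 members with a pooled summit, Cpr62Ba to Cpr62Bc 1 of 3 and Cpr64Aa to Cpr64Ad 1 of 4, at Cpr47Eg, Cpr62Ba and Cpr64Ac (rank 19806).

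The array Ccp84Ag to Ccp84Aa on 3R (6686728 to 6704903) was the emptiest of its size. None of its 7 members, Ccp84Aa and Ccp84Ab among them, had a summit within 1 kb in any of the 4 lists. Its nearest reproducible summit lay 55550 bp from Ccp84Aa and 168 bp from a start of bcd, the gene of the anterior determinant Bicoid. Cpr76Ba to Cpr76Bd likewise had 0 of 4 members with a summit within 1 kb in any list. For Lcp1 to Lcp4 and Cpr49Aa to Cpr49Ah, on 2R, the lists differed: replicate 1 had summits near 3 of 4 and 3 of 8 members, and replicate 2 and the pooled list had none. The highest −log10 q among these replicate 1 summits was 0.669, at a summit that Lcp2 and Lcp3 share, so none reached a q of 0.05. Over the 27 members on 2R, replicate 1 had a summit near 11 (40.7%), replicate 2 near 3 (11.1%) and the pooled list near 2 (7.41%), whereas of all genes on 2R the shares were 52.5%, 56.9% and 51.8%.

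Reproducible summits inside the arrays were few as well, but not confined to the starts. The 15 cluster spans, each with 1 kb added on either side, cover 0.271 Mb and held 4 reproducible summits, or 14.8 per Mb (exact Poisson 95% interval 4.02 to 37.8), against 41.0 per Mb over all arms. They held 62 pooled summits, or 229 per Mb (175 to 293), against 218, so the density of pooled summits was close to that of the arms. Of the 4, the summits near Cpr67Fb and Cpr65Ay are described above. The other two lay farther from a start: 1 between genes 2208 bp from Cpr65Ec (3L, summit 7090996, rank 1980) and 1 between genes 1612 bp from Cpr76Ba (3L, summit 19516720, rank 603). A member's start was the nearest to both, and with a signal value of 628.1 the second stood higher than any reproducible peak within 1 kb of a member.

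Distances to the nearest reproducible summit were long. Their median was 14374 bp (quartiles 6907.5 and 24901) over the 119 members and 5445 bp (764 and 15581) over 13945 genes on arms that hold a peak. A reproducible summit lay within 5 kb of 16.8% of members and 47.9% of all genes. For pooled summits the medians were 2245 and 654 bp, and 63.9% of members had one within 5 kb against 76.9% of all genes. In replicate 1 the order turned, with 89.9% of members and 81.8% of all genes within 5 kb, and in replicate 2 it did not, with 62.2% and 76.1%. Of all peaks in the replicate 1 list, 29.7% had a deposited q of at most 0.05. This share was 57.5% in replicate 2 and 44.5% in the pooled list. Within 2 kb, replicate 1 summits were found for 63.0% of members and 63.3% of all genes.

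**Figure D5:**
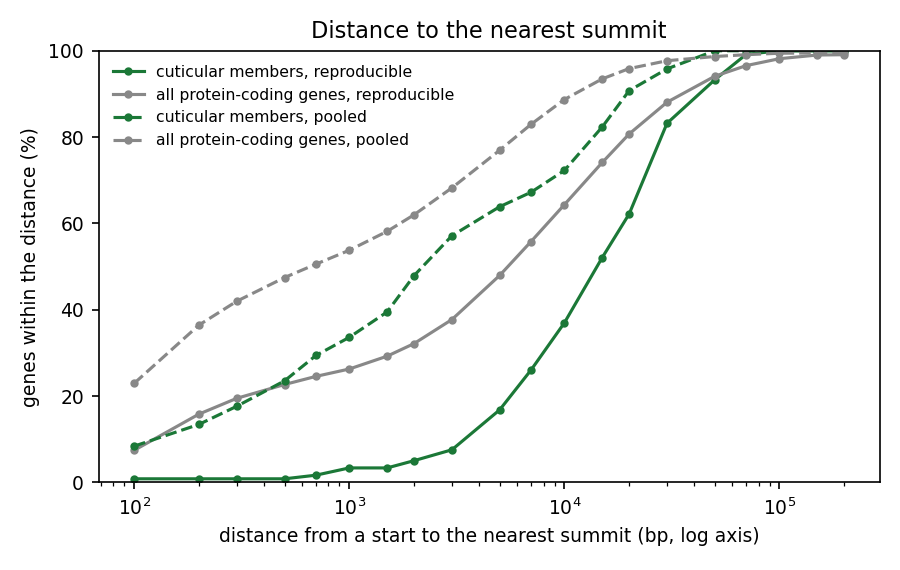
Share of genes (%) with a summit within the distance on the x axis (bp, log axis), for the 119 members (green) and all protein-coding genes on arms with a peak (grey), for the reproducible list (solid) and the pooled list (dashed). At 5 kb the solid lines stand at 16.8% and 47.9%, and they come together only beyond 30000 bp.

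The starts nearest to those summits belonged mostly to other genes. For 12 of the 15 clusters the reproducible summit nearest to any member was owned by a gene outside the set, and for 3 by a member, Cpr65Ec, Cpr67Fb or Cpr76Ba. In 9 of the 15 the owner's start lay within 500 bp of the summit. These summits lay 690 to 55550 bp from the start of the nearest member. No matching share was computed over all genes, so the 12 of 15 is not read as a trait of the arrays. At Cpr78Ca to Cpr78Cc the neighbour was CG11309, whose peak, 91 bp from its start and 3987 bp from Cpr78Cc, ranked 29 of all pooled peaks. At Cpr49Aa to Cpr49Ah it was DUBAI (rank 433, 97 bp), 21971 bp from Cpr49Ah. At Cpr72Ea to Cpr72Ec it was ringer (rank 5280, 35 bp), whose peak lay 3210 bp from Cpr72Ea. At TwdlM to TwdlD it was Tb, 1675 bp from the summit, which RefSeq also lists under the synonym TwdlA and which the symbol rule does not take in.

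The array genes include near-copies, and how the authors treated reads that match several places is not given in the sources used here. Of 32-base words within 1 kb of the starts, at least 50% occur more than once in the genome for 4 members: Lcp65Ab1 (73.3%), Lcp65Ab2 (72.4%), Cpr65Ax1 (64.6%) and Cpr65Ax2 (63.8%). Of these, Cpr65Ax2 alone had a pooled summit within 1 kb, and Lcp65Aa, at 41.1%, owned it. Among the 100 members with under 5% repeated words, 4 had a reproducible summit (4%), against 27.4% of all genes in that class. Of the 19 members with 5% or more, none had a reproducible summit, against 8.91% of all genes in that class, and 42.1% had a pooled one, against 27.5%. Whether repeats affected the calls was not tested.

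The promoters of the cuticular genes have a common feature that the symbol rule did not use, a TATA box. The letters TATAAA were found on the coding strand, between 45 and 15 bases before the start, in 71 of the 119 genes (59.7%, 50.3 to 68.6), against 8.74% of all 13968 promoters. The following 6 show it in genes of each prefix with 60 bases before and 20 after the start, with TATAAA in capitals; all are printed 5′ to 3′ on the coding strand from the RefSeq Release 6 genome.
Cpr67Fa1, chr3L:10889930-10890009, plus strand: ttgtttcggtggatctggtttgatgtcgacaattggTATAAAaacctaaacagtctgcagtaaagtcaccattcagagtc
Lcp65Ae, chr3L:6138099-6138178, minus strand: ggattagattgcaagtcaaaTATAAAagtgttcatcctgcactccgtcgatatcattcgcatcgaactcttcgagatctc
Lcp65Ab1, chr3L:6149488-6149567, plus strand: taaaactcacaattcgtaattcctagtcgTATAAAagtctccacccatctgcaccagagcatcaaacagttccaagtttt
Ccp84Aa, chr3R:6704024-6704103, plus strand: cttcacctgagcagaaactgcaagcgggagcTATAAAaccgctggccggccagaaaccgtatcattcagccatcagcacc
Edg78E, chr3L:21297784-21297863, minus strand: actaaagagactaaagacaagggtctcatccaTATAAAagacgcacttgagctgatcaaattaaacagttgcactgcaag
TwdlM, chr3R:26619058-26619137, plus strand: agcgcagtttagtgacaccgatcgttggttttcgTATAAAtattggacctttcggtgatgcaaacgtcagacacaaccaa
Of these 6, Cpr67Fa1, Lcp65Ae and TwdlM had a pooled summit within 1 kb, and Lcp65Ab1, Ccp84Aa and Edg78E had none.

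None of the 71 members with TATAAA had a reproducible summit within 1 kb, whereas 4 of the 48 without it had one (8.33%). Over all genes the shares were 10.7% of 1221 with TATAAA and 27.7% of 12747 without. The members' shares were below those of all genes in both classes. Other motifs were searched in the same promoters, from 250 bases before to 50 after the start. TCAGT, a form of the initiator core, was as frequent at the start in members (10.9%) as in all promoters (10.9%). Further forms of the initiator were not searched. GAGAG, the site of the GAGA factor, was in 31.1% and 29.7% on either strand. TATCGATA, the site of the factor DREF of housekeeping promoters, was in 1 member (0.840%) and 9.36% of all promoters. The E-boxes CAGCTG and CATATG were in 10.1% and 3.36% of members and in 17.6% and 7.81% of all promoters. The GC content of these promoters averaged 44.2% ± 5.90 (SD, n = 119 genes) in members and 39.1% ± 7.77 (SD, n = 13968) in all genes.

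Other genes of the cuticle were read from 6 lists, of which 86 of 92 symbols matched, and 18 of the 86 had a reproducible summit within 1 kb (20.9%, against 26.2% of all genes). None of 15 other cuticle protein genes (0%, up to 21.8) and none of 10 genes of apical matrix proteins with a zona pellucida domain (0%, up to 30.8, an interval that holds the share of all genes) had one. Of the other cuticle protein genes, 40% had a pooled summit within 1 kb, against 53.7% of all genes. The shares were 53.3% against 52.5% in replicate 1 and 46.7% against 57.3% in replicate 2. Acp65Aa, an adult cuticle protein gene within the array of 17 members, had a pooled summit at rank 21409, Edg84A had none, cyr had a pooled summit at rank 9157, and dpy, which encodes the giant matrix protein Dumpy, had none.

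Among enzymes, related proteins and regulators of the cuticle the shares with a reproducible summit were 16.7% to 36.8% by list, and the 26.2% of all genes lies within the interval of each. In chitin synthesis and deposition 4 of 16 had one (25%, 7.27 to 52.4). These were Gnpnat (rank 1830), Gfat2 (1832), mmy (1882) and nst (4092), which encode steps that make the chitin precursor UDP-N-acetylglucosamine. The deacetylase genes Cda4 and Cda5 had pooled summits below the reproducible list, at ranks 6549 and 11514. For the chitin synthase genes kkv and Chs2, no reproducible or pooled summit lay within 1 kb. In chitin turnover 7 of 19 had one (36.8%, 16.3 to 61.6), the highest at Hexo2 (rank 719), Cht11 (1234), Idgf6 (1359) and Cht7 (2725). The Cht11 summit was owned by CG4558, and Cht10 and Cht12 had no reproducible summit. That list also takes in fdl and the Idgf genes of chitinase-like proteins. Its share is thus not one of chitin-degrading enzymes alone. In tanning and pigment 2 of 12 had one (16.7%, 2.09 to 48.4): Ddc, the dopa decarboxylase gene (rank 3274), and Pu, the GTP cyclohydrolase gene (4816); b and e had none. Among regulators 5 of 14 had one (35.7%, 12.8 to 64.9): the ecdysone-induced nuclear receptor gene Eip75B (rank 575), the tracheal factor gene trh (694), the ecdysone receptor subunit genes usp (1570) and EcR (2544), and the epidermal factor gene grh (3103). Blimp-1 and Eip74EF had pooled summits below the reproducible list, at ranks 13054 and 10400. Pooled summits lay within 1 kb of 62.5% of the chitin synthesis genes, 68.4% of chitin turnover, 41.7% of tanning and 92.9% of regulators. The pooled share of all genes was 53.7%. The intervals for reproducible summits are wide and overlap each other, and the differences between lists were not tested.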

How the data were processed

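Peak lists from chromatin immunoprecipitation of GFP-tagged Fer3 in 2 embryo replicates were used. Per the deposited descriptions, the authors made the lists on dm6 and used 1 control alignment for both replicates. The aligner and the caller are not given in the sources used. The deposited signal value of each peak is on a scale that is not stated and was used only to rank peaks within a list. The deposited −log10 q is the authors' and was used as a threshold (q of at most 0.05). Depth is unknown.

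Starts are the 5′ ends of all protein-coding transcripts (Ensembl release 115, BDGP 6.54). A summit was linked to every gene with a start within 1 kb, and its owner is the gene with the nearest start. Links were tested on simulated summits. Members were joined into clusters of 3 or more across gaps of at most 20 kb. Promoters were read from the RefSeq Release 6 genome, since the planned promoter table was not used here; the first coding bases of 119 of 119 members read ATG. Shares have exact Clopper-Pearson 95% intervals. No test was run, since there is 1 group.

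The members and lists were chosen with earlier results of these data known. Named genes are those with reproducible summits and their owners, the 10 members with the highest pooled peak to which their own start is the nearest, the highest and up to 2 empty members of each cluster, and in each list up to 4 genes with and 2 without a reproducible summit. Among the regulators, grh was named beyond that limit of 4. After their values were seen, fdl was named beyond the limit of 4, and kkv and Chs2 beyond that of 2. Lcp9, other members listed with their values and the printed promoters were chosen after their values were seen. List symbols Cpap3-e, Knk2, Knk3, AANAT1, mnr and svb were not matched. Alternatives changed the distance, the peak position, the starts, the list and the gap, and 1 chosen after seeing the data left out P450 reductase. Scripts ran in Python 3.11.15 with scipy 1.17.1, pandas 2.3.3 and numpy 2.4.6, and figures in matplotlib 3.10.9.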

Additional observations from a re-analysis of the deposited data

How the results depend on the processing

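Of 57 alternative values, 36 stayed within the limit set for a change (1.5 times a count, or the interval of a share) and 21 moved. Within 500 bp of a start, 1 member had a reproducible summit in place of 4, 1 owned one in place of 2, and 29 in place of 45 had a replicate 1 summit. Within 2 kb, 75 had a replicate 1 summit and 49 in place of 32 a replicate 2 summit. With the upper 50% of each list, 1 member had a reproducible summit and 0 owned one, 14 in place of 40 had a pooled, 17 a replicate 1 and 13 a replicate 2 summit, and 13 in place of 36 owned a pooled one. With a deposited q of at most 0.05 the counts were 10 pooled, 5 replicate 1 and 16 replicate 2, and 9 owned a pooled summit. Without P450 reductase, an alternative chosen after seeing the data, 1 member owned a reproducible summit. The share of all genes with a reproducible summit, 26.2%, became 22.6% within 500 bp, 32.1% within 2 kb, 27.2% with any base of the peak counted, 24.2% with 1 start per gene and 15.7% with the upper 50% of the list. With a single replicate's list in place of the reproducible or pooled one, members with a reproducible summit stayed at 4 to 4 and owners at 2 to 2, members with a pooled summit ranged from 32 to 45 and owners from 29 to 41, and the share of all genes from 25.6% to 26.4%. Gaps of 10 or 50 kb gave 16 clusters each in place of 15. No paired analysis was possible because there is 1 group and no test. Peak lists without read counts limit what can be said of a gene with no summit: a missing summit may lie below the length at which a list ends.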
